A study of Mus musculus with 13 samples.

Results

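AGO peaks annotated as lying within 10 kb past the end of a gene are described here, as a set of 1006 regions among 18284 AGO peaks of mouse cortex. They were chosen by their region label in the deposited peak table alone, and none belongs to Rn45s, the ribosomal RNA precursor gene. The 12 peaks of Rn45s are among the 18284 but were left out of the totals behind shares and levels compared between libraries. Each region is 80 bases long. Argonaute (AGO) proteins hold microRNAs (miRNAs) and bring them to target RNAs. AGO CLIP crosslinks AGO to RNA with ultraviolet light, isolates AGO and sequences the bound RNA fragments, each counted as a tag. The tissue was cortex of wild-type C57BL6 mice aged 7 to 8 weeks, in 13 libraries. Sham animals had anaesthesia and exposed arteries but no filament (4 libraries: replicates 1, 2, 3 and 5). The other animals had the right middle cerebral artery occluded by a suture for 35 min and were killed after 3 h of recovery. From these animals the contralateral hemisphere (4 libraries: replicates 1, 2, 4 and 5) and the ipsilateral, ischemic hemisphere (5 libraries: replicates 1 to 5) were used. A replicate number stands for 1 day of surgery, and contralateral tissue comes from operated animals.

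The 3' untranslated region (3'UTR) follows the stop codon of an mRNA and carries most of the sites through which miRNAs act. A miRNA pairs with a target mainly through its seed, bases 2 to 8. Neurons use longer 3'UTRs than most tissues, because they often pass by the first poly(A) signal and end the RNA at a later one. An annotation that stops at the first end then places the later part of the 3'UTR downstream of the gene.

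The sequences shown here are RefSeq mature miRNAs with the seed in capitals, and below them the windows of downstream peaks that hold a match to that seed. They are some of the matches in the downstream peaks of the genes with the most downstream tags, or of the miRNA pathway and glutamate receptor genes named later. Other matches in such genes are not shown.
let-7a-5p: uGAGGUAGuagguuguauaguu
miR-7a-5p: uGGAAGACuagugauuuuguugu
miR-9-5p: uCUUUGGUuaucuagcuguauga
miR-29a-3p: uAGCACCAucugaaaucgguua
miR-30a-5p: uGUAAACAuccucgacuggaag
miR-125b-5p: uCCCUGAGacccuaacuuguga
miR-137-3p: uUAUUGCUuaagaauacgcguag

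The windows are at most 30 bases of transcript sequence from GENCODE release M21 (GRCm38, the assembly called mm10), in the direction of the host transcript, with the letters that pair with the seed in capitals. Their positions follow them.
C230004F18Rik, miR-7, first peak: GTCTTCCtgaaaatctatgccttccataaa
C230004F18Rik, miR-7, second peak: ccatgtcctcctaacaatccaaGTCTTCCt
1700020I14Rik, let-7: agttttctataaaatggaattcCTACCTCt
1700020I14Rik, miR-30: gtctctTGTTTACtctatgtacctgtgata
1700020I14Rik, miR-137: acaaccaAGCAATAttcagaacaactgcat
Nfix, miR-29: aaaaacccTGGTGCTtattacattataaag
Klf9, miR-30: taattttTGTTTACttttttaaccaaactg
Ago2, let-7: tggatCTACCTCagttaaacagttgggtgc
Grin2b, miR-29: tctcttTGGTGCTattctcatattcattgt
Grin2b, miR-9: tcacctggatactggagttgggACCAAAGt
Grin2a, miR-125: agctctaggaaggatgatagggCTCAGGGg

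The C230004F18Rik windows are chrX:61185704-61185733 and chrX:61185877-61185906 on the plus strand. Those of 1700020I14Rik are chr2:119602932-119602961, chr2:119604567-119604596 and chr2:119604398-119604427, also on the plus strand. The Nfix window is chr8:84706039-84706068 (minus strand), the Klf9 window chr19:23167589-23167618 (plus strand) and the Ago2 window chr15:73097965-73097994 (minus strand). The Grin2b windows are chr6:135719783-135719812 and chr6:135728504-135728533, and the Grin2a window is chr16:9573116-9573145, all on the minus strand. The windows of C230004F18Rik and 1700020I14Rik are in exons of noncoding genes, and the others are in 3'UTRs of GENCODE M21. In the Ago2 window and the first Grin2b window the match is followed by an A.

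Of the miRNA families planned, miR-124 was not searched, because its sequence was missing from the reference used. Matches to 14 seeds were searched on the transcript strand of the 610 downstream peaks whose 80 bases all lie in a GENCODE M21 transcript. The letters were CTACCTC (let-7), ACCAAAG (miR-9), TGGTGCT (miR-29), TACTTGA (miR-26), TGTTTAC (miR-30), AGCAATA (miR-137), TGAATGT (miR-181), TGCTGCT (miR-15/16), CTCAGGG (miR-125), CACCAGC (miR-138), CACTGTG (miR-128), AAGCACA (miR-218), CTATGCA (miR-153) and GTCTTCC (miR-7). At least 1 match was present in 96 of the 610 downstream peaks, or 15.7% (95% exact binomial interval 12.9 to 18.9, counting error only). The same share was 14.4% of 7049 peaks of the 3'UTR class, 18.8% of 2284 coding peaks and 10.3% of 10004 windows of 80 bases from the host genes' 3'UTRs outside every peak. The 100 matches in downstream peaks fall on 96 distinct positions, since some peaks overlap. These shares describe letters and were not tested.

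Among the seeds, miR-9 matches were in 2.13% of downstream peaks, 1.35% of 3'UTR peaks, 4.47% of coding peaks and 0.780% of the other windows. In the same order the shares were 1.80%, 1.28%, 1.31% and 0.760% for miR-29, and 1.48%, 0.809%, 2.71% and 0.400% for let-7. The share in downstream peaks was above that in 3'UTR peaks for 9 of the 14 seeds. It was below for miR-26, miR-30, miR-15/16, miR-218 and miR-7, with 0.656% against 1.77% for miR-30. The shares in downstream peaks rest on few peaks: 13 for miR-9, 11 for miR-29, 9 for let-7 and 4 for miR-30. The differences between the sets were not tested. The canonical poly(A) signal AATAAA, which marks where an RNA is cut and ends, was in 10.2% of downstream peaks, 9.86% of 3'UTR peaks, 1.93% of coding peaks and 4.97% of the other windows. The variant ATTAAA was in 8.20%, 5.73%, 1.62% and 4.00%. The base composition of these sets also differed, with 37.1% G or C in downstream peaks, 38.3% in 3'UTR peaks, 47.8% in coding peaks and 43.0% in the other windows. The part of composition in the shares was not tested.

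**Figure D1:**
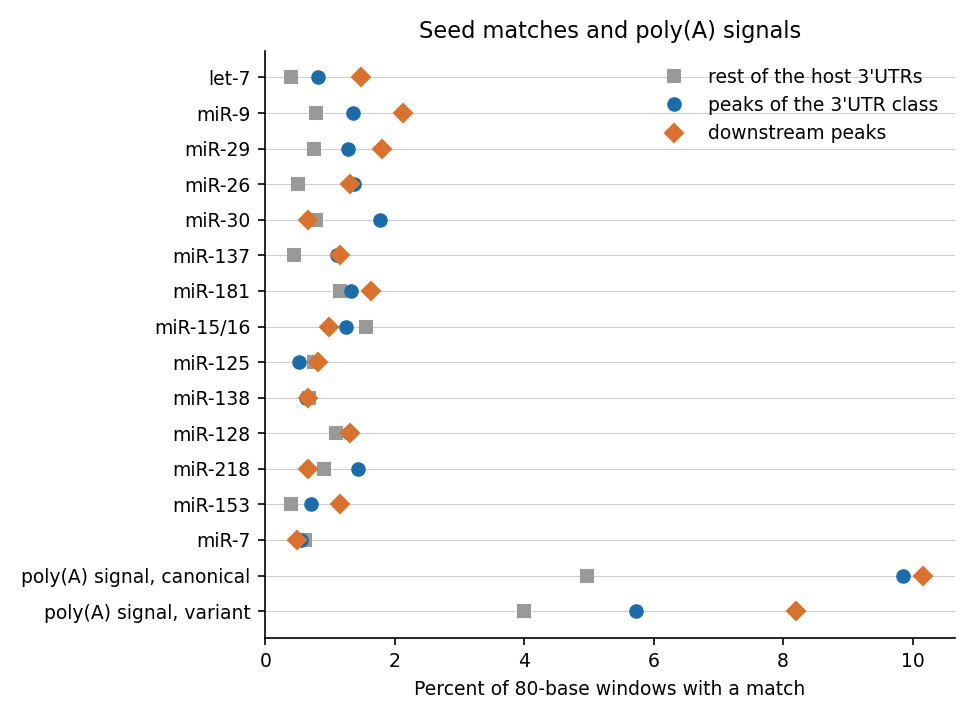
Percent of 80-base windows (x axis) that hold each seed match or poly(A) signal (y axis), for downstream peaks (diamonds), peaks of the 3'UTR class (circles) and the rest of the host 3'UTRs (squares). Both poly(A) signals are the most frequent matches, with 10.2% and 8.20% of downstream peaks, and each seed is in at most 2.13%. The signals are shorter than the seed matches and hold only A and T, so the shares of signals and seeds are not comparable.

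The downstream peaks held 18815 tags, or 4.76% of all tags in peaks with a position, Rn45s included. Summed over libraries, a downstream peak had a median of 12 tags (3 to 612), and 57 peaks had at least 50 tags. Every downstream peak had tags in at least 3 libraries, as did every peak in the table, and the median was 7 libraries. Tags were present in all 13 libraries for 5 downstream peaks. The label gave 885 peaks as downstream of a gene only and 121 as also within 10 kb upstream of a neighbouring gene. The table names no gene and no strand for these peaks. Host genes were therefore assigned from GENCODE M21 by position on either strand, so a peak is placed at a gene, and the strand of its RNA is not known.

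In that annotation 653 of the 1006 peaks, or 64.9%, lay in an exon, and these held 56.9% of the downstream tags. The 3'UTR of a protein-coding gene held 586 peaks, with 8601 tags in 208 genes. Of these 208 genes, 123 had no peak of the 3'UTR class under their name. Exons of noncoding genes held 55 peaks (1842 tags), other exons of coding genes 12 and introns 67, and 286 peaks lay outside genes (7033 tags). Without the replicate 1 libraries 69.2% of downstream tags were in exons, and every one of the 1006 peaks had tags in at least 1 of the other 10 libraries. In total 967 peaks had a host: 653 by an exon and 314 as the flank past a gene end, over 464 genes, while 39 had none. For 96 peaks more than 1 gene could be the host.

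The share of downstream tags in exons was 42.7%, 67.5%, 52.1% and 74.5% in sham replicates 1, 2, 3 and 5. It was 48.5%, 63.8%, 75.3% and 82.7% in contralateral replicates 1, 2, 4 and 5. In ipsilateral replicates 1 to 5 it was 39.9%, 71.4%, 69.8%, 67.2% and 85.1%. Replicate 1 is the lowest library of each group, and the groups overlap. The replicate 1 libraries held 36.8% of the tags in exonic downstream peaks and 62.9% of those in downstream peaks with no exon, against 37.2% of the tags in peaks of the 3'UTR class and 50.5% of all peak tags. Among the downstream peaks with at least 50 tags, replicate 1 supplied at least 75% of the tags in 3 of 26 exonic peaks and in 23 of 31 peaks with no exon.

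**Figure D2:**
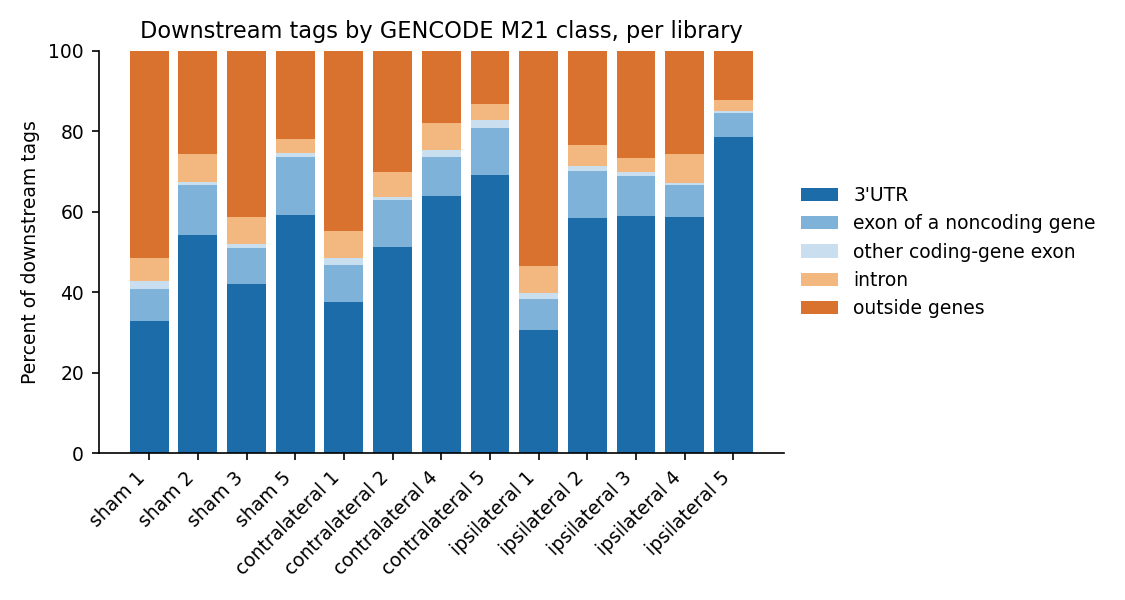
Stacked bars of the percent of downstream tags (y axis) in each GENCODE M21 class, for each of the 13 libraries (x axis). The exon classes are blue and the intron and intergenic classes orange. The replicate 1 bars have the smallest blue part of their groups, 42.7%, 48.5% and 39.9%.

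Downstream peaks inside a GENCODE 3'UTR lay far from the stop codon. Their median distance was 2908 bases (interquartile range 1548 to 4505, longest 12289), and 47.6% were more than 3 kb away. For 7634 peaks of the 3'UTR class in such 3'UTRs the median was 1060 bases (448 to 2167) and 14.9% were more than 3 kb away. A shorter transcript of the same gene ended before the peak for 408 of the 586 downstream peaks, or 69.6%, and for 47.9% of the 3'UTR class. Both the distance and the label depend on gene ends, so these values describe the label and were not tested.

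**Figure D3:**
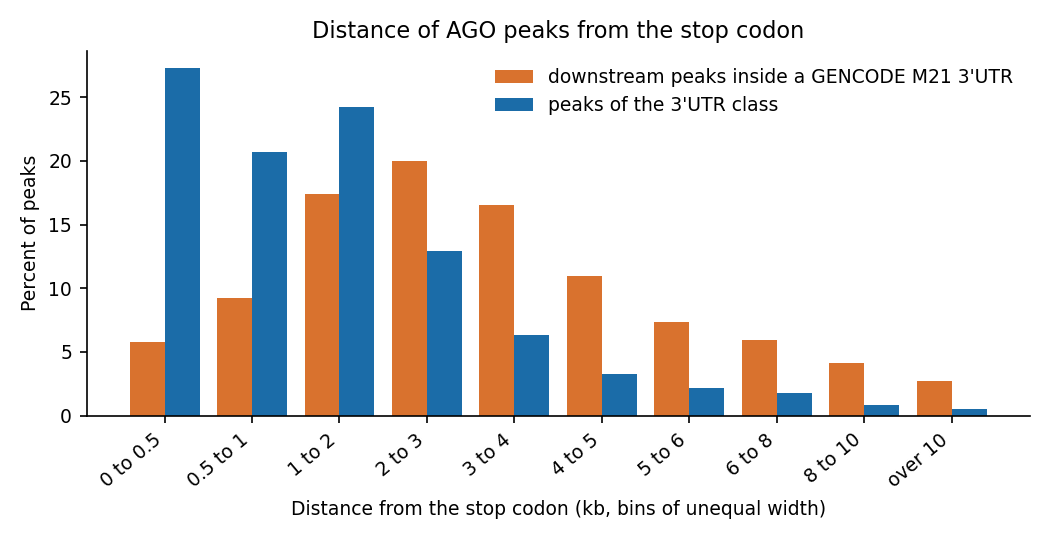
Percent of peaks (y axis) by distance from the stop codon in kb (x axis, bins of unequal width) for 586 downstream peaks inside a GENCODE M21 3'UTR (orange) and 7634 peaks of the 3'UTR class (blue). Peaks of the 3'UTR class are most frequent in the first 0.5 kb (27.3%) and downstream peaks between 2 and 3 kb (20.0%).

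The 314 flank peaks spread over the whole 10 kb past the gene end. They numbered 79 within 1 kb (29.3% of flank tags), 99 from 1 to 3 kb (31.1%), 54 from 3 to 5 kb (13.2%) and 82 from 5 to 10 kb (26.4%). The share of flank tags within 1 kb was 30.5 ± 2.44% in sham (SD, n = 4), 30.2 ± 1.85% in contralateral (n = 4) and 29.4 ± 5.58% in ipsilateral libraries (n = 5). In two-sided exact permutation tests over libraries it gave p = 0.762 for ipsilateral against sham, 0.881 for ipsilateral against contralateral and 0.829 for contralateral against sham (adjusted over the 3, 0.881 each).

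Noncoding RNAs come first. The gene with the most downstream tags was 1700020I14Rik, which RefSeq lists as Oip5os1 with the synonym Cyrano, a conserved long noncoding RNA known for an extended site for miR-7. Among the downstream peaks searched, miR-7 seed matches were in 3 peaks, of C230004F18Rik and Grin2b, and in none of this gene. Its 27 downstream peaks (1235 tags) lay at chr2:119602923-119607515, past the shorter transcript's end at base 119600746. All overlap the last exon of the longer GENCODE transcript, which runs to base 119607502, and 26 lie wholly inside it. That exon held 45 AGO peaks and 1756 tags in all, of which 19 peaks (628 tags) are labelled as unclassified exon. The levels given next cover the downstream peaks only. Per 10000 tags in 3'UTR and downstream peaks, the scale of all levels given here, 1700020I14Rik had 79.2, 79.0, 76.5 and 105 downstream tags in sham replicates 1, 2, 3 and 5. The levels were 79.1, 101, 54.1 and 84.9 in contralateral replicates 1, 2, 4 and 5, and 70.3, 71.5, 55.7, 62.8 and 44.0 in ipsilateral replicates 1 to 5. Every ipsilateral library was below every sham library, while the contralateral libraries spanned both. The fitted log2 fold change of ipsilateral against sham was -0.34 (SE 0.29, adjusted p = 0.802 in the edgeR test described with the others later, which called 0% of all tested sums in this comparison).

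C230004F18Rik had 2 downstream peaks of 136 and 122 tags, the fifth and eighth largest of the set, and each holds a miR-7 seed match shown above. They lie in a GENCODE exon of 2927 bases (chrX:61183248-61186174) on the strand opposite Cdr1. RefSeq lists the gene as Cdr1os with the synonym Cdr1as, the name of a circular RNA known for its many miR-7 sites. Tags do not tell a linear from a circular RNA. The same exon held 16 AGO peaks and 1688 tags in all, of which the table labels 10 peaks (825 tags) as coding and 3 (559 tags) as 3'UTR, so the downstream label covers 258 of its tags. The downstream level was 11.8, 33.7, 10.5 and 17.0 in sham replicates 1, 2, 3 and 5, and 7.02, 18.9, 9.40 and 11.3 in contralateral replicates 1, 2, 4 and 5. In ipsilateral replicates 1 to 5 it was 14.5, 20.1, 25.03, 5.23 and 0. The groups overlap, and the last value is 0 tags in the shallowest library, where 1 tag is worth 4.40 per 10000. Over all peaks of the exon that library also had only 1 tag, while the other libraries had 51.5 to 175 per 10000. What this low value comes from was not tested.

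Annotated 3'UTRs held the next groups of peaks. Grin2b, a subunit of the NMDA glutamate receptor, had 42 downstream peaks (490 tags) from 2571 to 12289 bases past its stop codon (chr6:135719733-135729530), and 11 peaks with 142 tags of the 3'UTR class. Its level was 20.5, 39.5, 30.0 and 26.7 in sham replicates 1, 2, 3 and 5, and 30.9, 43.0, 30.6 and 68.0 in contralateral replicates 1, 2, 4 and 5. It was 13.9, 30.7, 32.7, 26.2 and 44.0 in ipsilateral replicates 1 to 5. The groups overlap, and replicate 1 is the lowest library in sham and ipsilateral cortex.

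Klf9, a transcription factor of the Kruppel-like family, had 8 downstream peaks (260 tags) from 2075 to 3153 bases past the stop codon and 14 peaks (272 tags) of the 3'UTR class. Its level was 13.6, 17.3, 12.005 and 25.2 in sham replicates 1, 2, 3 and 5, and 13.1, 26.7, 23.5 and 18.4 in contralateral replicates 1, 2, 4 and 5. In ipsilateral replicates 1 to 5 it was 20.4, 13.1, 8.68, 15.7 and 4.40, again with overlap. Sesn3, a stress-induced sestrin, had 22 peaks (291 tags) and no peak of the 3'UTR class. Its mean level was 19.8 ± 4.11 in sham, 25.04 ± 8.78 in contralateral and 14.3 ± 3.78 in ipsilateral libraries (SD, n = 4, 4 and 5).

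Ptpn4, a tyrosine phosphatase, had 20 peaks (240 tags) up to 7305 bases past the stop codon. Its mean level was 12.1 ± 5.25 in sham, 14.05 ± 6.00 in contralateral and 21.2 ± 9.82 in ipsilateral libraries. Nfix, a transcription factor of the nuclear factor I family, had 6 peaks (237 tags) and means of 13.6 ± 5.29, 17.3 ± 6.72 and 14.8 ± 3.18 in the same order. Hipk2, a protein kinase, had 20 peaks (347 tags), of which 6 are in an exon and 14 lie 2605 to 6337 bases past the gene end. Its means were 21.5 ± 5.39, 17.4 ± 3.89 and 25.1 ± 9.40. For each of these genes the groups overlap.

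Of the 15 largest peaks 9 lay in a flank. In 8 of these, 66.2% to 95.2% of the tags were in replicate 1, and in the peak past Apba2, an adaptor of neuronal vesicles, 16.2%. The largest of all, 612 tags at chr12:8496781-8496860, lay 801 bases past the end of Rhob, a small GTPase, and 78.6% of its tags were in replicate 1. Its level was 76.9, 2.89, 40.5 and 13.3 in sham replicates 1, 2, 3 and 5, and 57.1, 24.9, 2.35 and 0 in contralateral replicates 1, 2, 4 and 5. It was 102, 3.02, 17.9, 31.4 and 0 in ipsilateral replicates 1 to 5. Replicate 1 is the highest library of each group.

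The next, 470 tags at chr7:46881017-46881096, lay 2875 bases past Ldhc, a lactate dehydrogenase of testis, with 66.2% of tags in replicate 1. Its level was 54.6, 6.74, 33.0 and 5.93 in sham replicates 1, 2, 3 and 5, and 42.6, 42.1, 21.2 and 0 in contralateral replicates 1, 2, 4 and 5. It was 53.6, 10.1, 20.9, 7.85 and 0 in ipsilateral replicates 1 to 5, and here too replicate 1 is the highest library of each group. For the peak of 207 tags 8383 bases past 4930509K18Rik the replicate 1 share was 95.2%, for that of 209 tags past Akap13 71.3%, and for that of 123 tags past Iqsec2 75.6%. Among the 15 largest peaks, that of 102 tags in the 3'UTR of Lsamp, a neuronal adhesion protein, was the one with tags in all 13 libraries. Its replicate 1 share was 26.5%. What the uneven replicate 1 share comes from was not tested.

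The comparison of ipsilateral with sham cortex asks whether AGO binding past annotated gene ends differs after ischemia. The downstream share of tags in 3'UTR and downstream peaks was 14.8%, 10.6%, 13.5% and 9.39% in sham replicates 1, 2, 3 and 5, and 13.1%, 11.2%, 9.21% and 8.59% in contralateral replicates 1, 2, 4 and 5. It was 16.2%, 8.92%, 9.53%, 9.81% and 7.96% in ipsilateral replicates 1 to 5. Replicate 1 was the highest library of each group, and the groups overlap. The means were 12.1 ± 2.48%, 10.5 ± 2.03% and 10.5 ± 3.26% (SD, n = 4, 4 and 5). The permutation tests that follow did not pair libraries by day of surgery, except where pairing is named. Alternatives with a replicate block are treated at the end. Ipsilateral against sham gave a difference of -1.60 percentage points (two-sided exact permutation p = 0.429, smallest possible 0.00794). With 1 library left out this difference was -3.02 (without ipsilateral replicate 1) to -0.705 (without sham replicate 1), with -2.49 without sham replicate 5 and -0.971 without ipsilateral replicate 5. Without all 3 replicate 1 libraries it was -2.13 (exact p = 0.0857). Ipsilateral against contralateral gave -0.0479 (exact p = 0.984), and contralateral against sham -1.55 (exact p = 0.343, smallest possible 0.0286), with -2.45 to -0.657 when 1 library was left out (sham replicates 5 and 1), -2.40 without contralateral replicate 1 and -0.909 without contralateral replicate 5.

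As a share of all peak tags, downstream tags were 4.50% to 5.43% in every library, with means of 4.99 ± 0.137% in sham, 5.08 ± 0.409% in contralateral and 5.12 ± 0.253% in ipsilateral libraries. The exact permutation p was 0.397 for ipsilateral against sham, 0.905 for ipsilateral against contralateral and 0.743 for contralateral against sham. Within the 137 host genes that also have peaks of the 3'UTR class, downstream tags were 45.3 ± 6.28%, 44.3 ± 4.34% and 46.0 ± 7.25% of the sum. The exact permutation p was 0.881, 0.698 and 0.800 in the same order. All 9 share tests gave a Benjamini-Hochberg adjusted exact p of 0.984. Bulk tags cannot tell a changed RNA level or fewer cells of a type from changed AGO binding, and shares cannot tell more downstream from less 3'UTR binding.

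Counting only the 653 exonic downstream peaks, a choice made after the data were seen, the share was 6.89%, 7.44%, 7.52% and 7.17% in sham replicates 1, 2, 3 and 5, and 6.80%, 7.46%, 7.10% and 7.21% in contralateral replicates 1, 2, 4 and 5. It was 7.15%, 6.53%, 6.85%, 6.81% and 6.85% in ipsilateral replicates 1 to 5. The groups overlap, with replicate 1 the lowest library in sham and contralateral cortex and the highest in ipsilateral cortex. Ipsilateral against sham gave -0.417 percentage points (exact permutation p = 0.0476, adjusted 0.143 over the 3 comparisons), which did not pass after adjustment. Paired by day of surgery, 3 of 4 pairs were lower and 1 was higher in ipsilateral cortex (-0.910 to 0.260, exact sign permutation p = 0.25, smallest possible 0.125). Without the replicate 1 libraries the difference was -0.617 against sham and -0.495 against contralateral cortex (exact p = 0.0286 for each, the smallest possible, not adjusted).

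**Figure D4:**
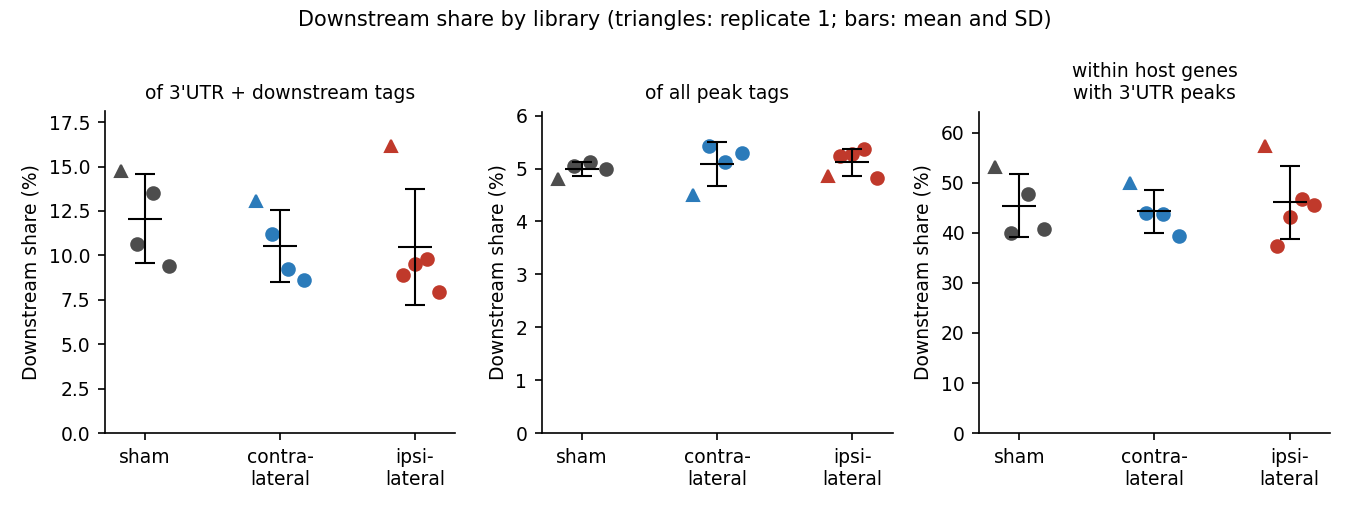
Downstream share in percent (y axis) for each library by group (x axis), of 3'UTR plus downstream tags (left), of all peak tags (middle) and within host genes with 3'UTR peaks (right). Black bars are the mean and SD and triangles replicate 1, which is highest in each group on the left (14.8%, 13.1% and 16.2%) and lowest in sham and contralateral libraries in the middle.

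Single peaks and sums per gene and region class were tested with edgeR's quasi-likelihood test, two-sided, with Benjamini-Hochberg adjustment over all features tested and a threshold of 0.05. Of the 1006 downstream peaks 6 had enough tags to be tested, among 238 peaks, and 0 were called in ipsilateral against sham cortex (0% of all tested peaks called). In ipsilateral against contralateral and in contralateral against sham cortex 0 of the 6 were also called (0% of all tested peaks in each). At an unadjusted p under 0.05 none of the 6 passed, against 2.10%, 2.10% and 0.420% of all 238. In data simulated for ipsilateral against sham cortex this test recovered 0% of 39 peaks changed 4-fold. The 6 are the peaks of Rhob, Ldhc, Akap13 and Lsamp and both of C230004F18Rik.

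Of 464 host genes 29 had downstream sums that could be tested, among 616 sums. In ipsilateral against sham cortex 0 of the 29 were called (0% of all), and 2 had an unadjusted p under 0.05, against 9.90% of all 616. In ipsilateral against contralateral cortex 0 were called (0% of all), and 1 passed unadjusted, against 8.93%. In contralateral against sham cortex 0 were called (0% of all) and 0 passed unadjusted, against 1.30%. The comparisons share groups. The median log2 fold change of the 29 was 0.18, 0.29 and 0.08 in this order, against -0.01, 0.14 and -0.08 over all sums. A positive value was fitted for 18, 17 and 16 of the 29. DESeq2 also called 0 downstream features in each comparison. In simulated ipsilateral against sham data with the dispersion of the sums, 30% of sums changed 4-fold and 2% of those changed 2-fold were recovered, so a change of such size in a single sum would often not be called.

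The smallest p for a downstream sum belonged to S1pr3, a receptor for the lipid sphingosine 1-phosphate. Its 13 peaks (146 tags) lie 572 to 3983 bases past its end (chr13:51423369-51426859), outside GENCODE exons, and for each a second gene could be the host. Its level was 11.8, 10.6, 19.5 and 13.3 in sham replicates 1, 2, 3 and 5, and 10.8, 10.3, 9.40 and 8.49 in contralateral replicates 1, 2, 4 and 5. It was 2.68, 10.1, 2.55, 5.23 and 4.40 in ipsilateral replicates 1 to 5. All 5 ipsilateral libraries lie below the lowest sham library, with ipsilateral replicate 2 close to it. These ipsilateral levels rest on few tags: 5, 20, 5, 2 and 1 in replicates 1 to 5. The log2 fold change was -1.28 (SE 0.41, unadjusted p = 0.00783, edgeR adjusted p = 0.339) against sham and -0.77 (SE 0.42, adjusted p = 0.541) against contralateral cortex, so neither passed. Without ipsilateral replicate 2 the second value was -1.37 (adjusted p = 0.283).

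Grin2a, another NMDA receptor subunit, had 6 downstream peaks (122 tags) from 3532 to 9749 bases past its stop codon and none of the 3'UTR class. Its level was 2.27, 2.89, 9.004 and 5.19 in sham replicates 1, 2, 3 and 5, and 5.15, 7.74, 7.05 and 11.3 in contralateral replicates 1, 2, 4 and 5. In ipsilateral replicates 1 to 5 it was 3.22, 13.1, 12.3, 26.2 and 17.6. Ipsilateral replicates 2 to 5 are above every library of the other groups, and replicate 1 lies within the sham range. The log2 fold change was 1.63 (SE 0.53, unadjusted p = 0.00940, edgeR adjusted p = 0.339) against sham and 0.91 (SE 0.52, adjusted p = 0.544) against contralateral cortex. Grin2b gave 0.09 (SE 0.33, adjusted p = 1.00) and -0.45 (SE 0.33, adjusted p = 0.685) in edgeR.

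Gpr26, an orphan receptor of the brain, had the smallest p against contralateral cortex, with a log2 fold change of -1.87 (SE 0.76, unadjusted p = 0.0291, edgeR adjusted p = 0.499). Without contralateral replicate 4 it was -1.15 (unadjusted p = 0.160). Its 9 peaks (108 tags) gave 7.02, 11.2, 39.96 and 9.91 in contralateral replicates 1, 2, 4 and 5, and 3.76, 5.54, 4.60, 0 and 0 in ipsilateral replicates 1 to 5. These groups do not overlap, but sham replicates 1, 2, 3 and 5 ran from 2.22 to 16.5 across both. Among the other small p values against sham cortex, Ptpn4 gave a log2 fold change of 0.86, Ptar1 1.00, Sept8 0.61 and Ppp3ca, a catalytic subunit of calcineurin, 0.58. Sesn3 gave -0.28, Klf9 -0.23 and Gpr26 -0.71. Against contralateral cortex Hipk2 gave 0.65, Spock2, a brain proteoglycan, 0.74, Frrs1l, an AMPA receptor assembly factor, 0.81 and Ptpn4 0.75, while Sesn3 gave -0.58 and Klf9 -0.43. The edgeR adjusted p was above 0.5 for each of these genes in the comparison named.

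**Figure D5:**
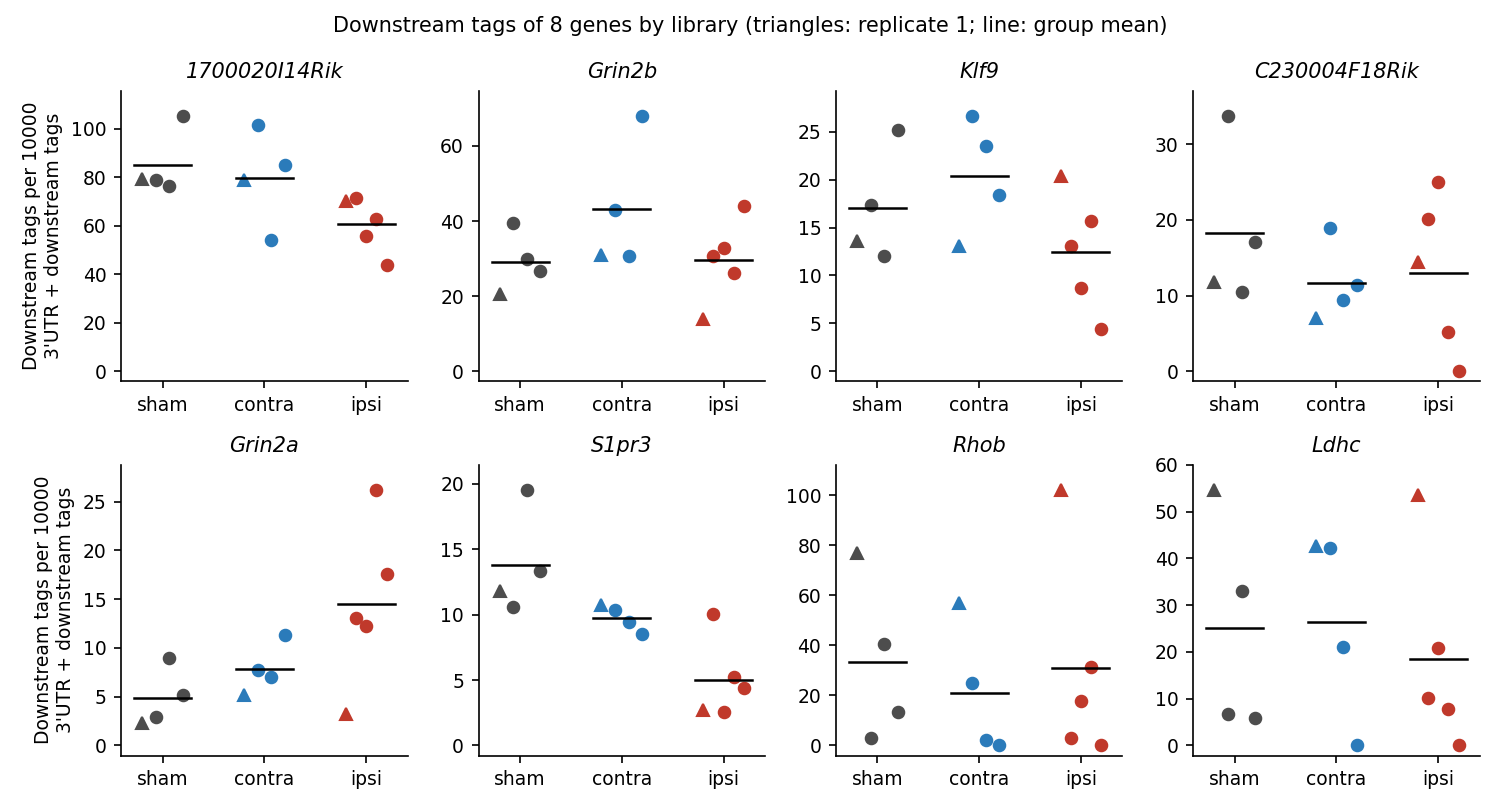
Downstream tags per 10000 tags in 3'UTR and downstream peaks (y axis) for 8 genes in each library by group (x axis), with triangles for replicate 1 and a line for the group mean. S1pr3 lies at 2.55 to 10.1 in ipsilateral and 10.6 to 19.5 in sham libraries, and the Rhob and Ldhc peaks are highest in replicate 1.

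Over the 4651 genes with named peaks outside the downstream class, 229, or 4.92%, also hosted a downstream peak. The counts for chosen lists are small and were not tested against this. Of 20 genes known for long or alternative 3'UTRs in brain, such as Bdnf and Camk2a, 19 had peaks under their name and 0 hosted a downstream peak. Of 16 glutamate transport and receptor genes 15 had named peaks and 2 hosted downstream peaks, Grin2b and Grin2a. Of 20 immediate early genes, which neurons switch on within minutes of activity, 10 had named peaks and 1 hosted downstream peaks: Homer1, a synaptic scaffold, with 2 peaks and 15 tags. Of 18 heat shock and unfolded protein response genes 10 had named peaks and 1 hosted a downstream peak: Hspa1a, an inducible chaperone of the 70 kDa class, with 1 flank peak of 47 tags 3017 bases past its end. The Hspa1a level was 7.28, 3.85, 4.50 and 0 in sham replicates 1, 2, 3 and 5, 1.87, 1.72, 2.35 and 0 in contralateral replicates 1, 2, 4 and 5, and 3.76, 1.51, 2.55, 5.23 and 0 in ipsilateral replicates 1 to 5, with overlap.

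Of 11 miRNA pathway genes 1 hosted downstream peaks: Ago2, the Argonaute that cuts target RNA, with 2 peaks and 37 tags in its 3'UTR, 8917 to 10887 bases past the stop codon. The let-7 match shown above lies in its larger peak, of 29 tags. Ago2 levels were 1.36, 0.963, 1.50 and 3.71 in sham replicates 1, 2, 3 and 5, 4.68, 4.30, 2.35 and 2.83 in contralateral replicates 1, 2, 4 and 5, and 0, 3.02, 1.02, 0 and 4.40 in ipsilateral replicates 1 to 5. None of the downstream sums of Homer1, Hspa1a or Ago2 had enough tags to be tested.

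Depth per library, with Rn45s included, ran from 181 downstream tags among 3780 peak tags in ipsilateral replicate 5 to 3244 among 71027 in sham replicate 1. A single tag was worth 0.455 to 4.40 per 10000. The labelled tissue was checked against marker genes with peaks under their names: 9 of 11 neuronal genes (6212 tags), 7 of 9 astrocyte genes (6569 tags) and 5 of 9 genes of the oligodendrocyte lineage (911 tags). For microglia 1 of 6 genes had peaks (24 tags), for vascular cells 2 of 5 (34 tags) and for blood 1 of 5 (23 tags). Downstream peaks lay at 1 neuronal marker, Nefl, a neurofilament (2 peaks, 65 tags).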

How the data were processed

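The authors deposited raw tag counts per AGO peak, not normalized. The submitters' processing notes name mm10 and Novoalign. The peak caller is not given in the sources used here, nor is any removal of duplicates. Where duplicates remain, tags are not independent molecules, so intervals cover counting error only.

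Downstream peaks were placed on GENCODE M21 (GRCm38) by position on either strand: an overlapping exon first, otherwise the nearest gene end within 10 kb. Positions were written 1-based. Shares were compared over libraries with two-sided exact permutation tests. Counts were tested with edgeR 4.0.16 (TMM factors, filterByExpr, quasi-likelihood, all 13 libraries, no block, Benjamini-Hochberg threshold 0.05), once per peak (238 of 18284 kept, biological coefficient of variation 0.907) and once per sum of a gene and region class (616 of 6818 kept, 0.650). SE is the log2 fold change divided by the square root of F. DESeq2 1.42.0 was an alternative. Both tests were tested on simulated data. Python 3 with scipy made the other values. The table's 1 peak without a position was left out. Peaks of Rn45s were left out of the totals behind shares and levels compared between libraries. They were kept in the counts tested, in the depth per library and in the overall share of downstream tags.

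Named genes are the 15 peaks and 10 genes with the most downstream tags, the 5 smallest p in each direction against sham and against contralateral cortex, and up to 4 list members. Members and lists were chosen with earlier results of these data known.

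Replicate numbers mark a shared day of surgery, per the series' design text, so they pair libraries. Deviations from group means of 674 sums correlated with a median of 0.530 over 11 same-numbered pairs (-0.143 to 0.863). Over 45 others the median was -0.0235 (-0.718 to 0.533), so the ranges overlap. The pairs of replicate 1 were the highest, at 0.837, 0.852 and 0.863.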

Additional observations from a re-analysis of the deposited data

Results flagged for a closer look

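A library apart from the rest of its group was looked for in 81 sets of 4 or 5 values, and 7 had one, where chance alone gives about 1 in 20. In ipsilateral cortex the downstream share of 3'UTR plus downstream tags was 16.2% in replicate 1, above 7.96% to 9.81% in the other libraries. The downstream level of 1700020I14Rik was 105 per 10000 in sham replicate 5, above the other sham libraries. In contralateral cortex Ptar1 stood at 16.5 and Gpr26 at 39.96 in replicate 4, and Sept8 at 15.5 and Homer1 at 2.58 in replicate 2. The Homer1 value is 3 tags, with 0 in the other contralateral libraries. Nefl was at 0 in ipsilateral replicate 5, the shallowest library, where 1 tag is worth 4.40 per 10000.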

How the results depend on the processing

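No downstream peak or downstream sum was called in any of the 114 alternative fits. Over all features tested, against sham and contralateral cortex in that order, ipsilateral libraries gave 0 and 1 called peak and 2 and 12 called sums by DESeq2. Without the replicate 1 libraries 2 and 5 sums were called, and without a filter 1 against sham. With a replicate block, which pairs libraries of the same day, 1 sum was called against sham. Leaving out 1 library at a time gave 0 to 2 sums against sham, 0 to 9 against contralateral, and 0 to 1 peak against contralateral.

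With all downstream peaks, no alternative of a share test had an exact p under 0.05. With exonic downstream peaks only, chosen after the data were seen, ipsilateral minus sham was -0.417 (exact p = 0.0476, adjusted 0.143) and -0.411 with the replicate block (exact p = 0.25). Without replicate 1 as well, it was -0.617, and -0.495 against contralateral (exact p = 0.0286 for each, not adjusted). Differences near 0 changed sign. Ipsilateral minus contralateral of the share of 3'UTR plus downstream tags was 0.189 with the replicate block (exact p = 0.875), 0.126 without 1700020I14Rik, 0.279 with non-exonic peaks only, and -1.47 to 0.797 with 1 library left out. The share of all peak tags, ipsilateral minus sham, was -0.0397 in peaks with at least 10 tags and -0.508 with exonic plus downstream tags as total, which gave -1.13 for contralateral minus sham. Its ipsilateral minus contralateral difference was -0.00722 with the block, -0.0985 without replicate 1 and -0.327 with at least 10 tags. With 1 library left out it was -0.163 to 0.146, and contralateral minus sham was -0.0247 to 0.284. Within host genes, at least 10 tags gave -0.115, -0.303 and 0.188 in the order ipsilateral minus sham, ipsilateral minus contralateral and contralateral minus sham, and leaving out 1 library -2.12 to 3.29, -1.06 to 3.91 and -2.96 to 1.53. Klf9 against sham was -0.64 to 0.0356 on the log2 scale, above 0 without sham replicate 5. The cause of these changes was not tested. The block changed no other call.

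At a median of 12 tags in 13 libraries, 6 of the 1006 peaks passed the filter on low counts. Without that filter all 1006 were tested and 0 were called in each comparison.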
